A study of Prunus dulcis with 36 samples.

Results

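The early growth of normally developed almond fruits was followed through 3 sampling stages, 12, 17 and 22 days after flowering (DAF). These normal fruits make up 9 of the 36 samples of the series, 3 replicates per stage, and were taken by their labels of fruit type and stage. Their expression was read over 8676 listed unigenes, the assembled transcript units of the study, which are the same units as in the whole series. All fruits were fruitlets of the almond (Prunus dulcis) cultivar 'ZhiPi', and the study set normal fruits against abnormal ones, whose development had halted, at 6 stages from 12 to 37 DAF to look for genes linked to fruit drop. No treatment or genotype separated the groups. Each sample was a mixture of several whole fruitlets of orchard trees, cut up and mixed, so a change in the makeup of the fruit and a change in transcript level per cell cannot be told apart. Below, N12, N17 and N22 denote normal fruits at 12, 17 and 22 DAF, A12, A17 and A22 abnormal fruits at the same stages, and N27, N32 and N37 normal fruits at the later ones.

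After fertilization a young stone fruit grows first by cell division and then by enlargement of its wall tissues, while the seed coat and the nutritive tissue of the seed expand around a still small embryo. Auxin and gibberellin from the young seed keep the fruit attached and growing, abscisic acid acts on water balance and on growth, and the fruit draws sugars from the leaves. Enzymes that loosen or build the wall, that bring sugars in and that make the surface layer of cutin and wax are therefore a usual subject in fruitlets.

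The deposited values are 1 mean normalised FPKM per unigene and group (a read level corrected for the length of the transcript and the size of the library). The replicates are not resolved in these means, and differences are therefore given without a spread, a test or a p-value. Stages were set against each other on the scale of log2(FPKM + 1), where unigenes that differed by over 1 are called higher or lower here. The added 1 understates the changes of weakly expressed unigenes, and no fold is given against a group listed at 0. The column sums were 227051 FPKM in N12, 238263 in N17 and 237495 in N22, and 3666, 4154 and 3444 unigenes were listed at 0. Each listed unigene differed from N12 by at least 1 in some other group, so the list is itself a selection of varying unigenes and not the whole transcriptome.

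A feature of the libraries preceded all results. The best database match was held for 722 of the listed unigenes, and it was a protein of the rose family (Rosaceae, to which almond belongs) for 444 of them and of the cabbage family (Brassicaceae) for 172. Of the latter, 146 had Arabidopsis thaliana as the matched organism. Unigenes of the Brassicaceae group were listed above 0 in number 123 in N12 and 127 in N17, but 0 in N22, 0 in N27 and N32, and 1 in N37. In abnormal fruits they numbered 144 in A12, 1 in A17 and 96 in A22, and at most 1 at each later stage. Their summed level was 380 FPKM in N12, 583 FPKM in N17 and 0 in N22. The 65 unigenes matching fungi, oomycetes, algae or other distant organisms showed the opposite division in normal fruits, with 1 above 0 in N12, 1 in N17 and 33 in N22. In abnormal fruits they numbered 1 in A12, 40 in A17 and 26 in A22, so that A22 held unigenes of both classes. The Rosaceae group changed little, with 299, 288 and 323 above 0 in N12, N17 and N22. In normal fruits this division fell exactly between 17 and 22 DAF. A change with stage and a difference between the libraries therefore cannot be told apart at this step. This holds for any unigene, also for those with a Rosaceae match.

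**Figure D1:**
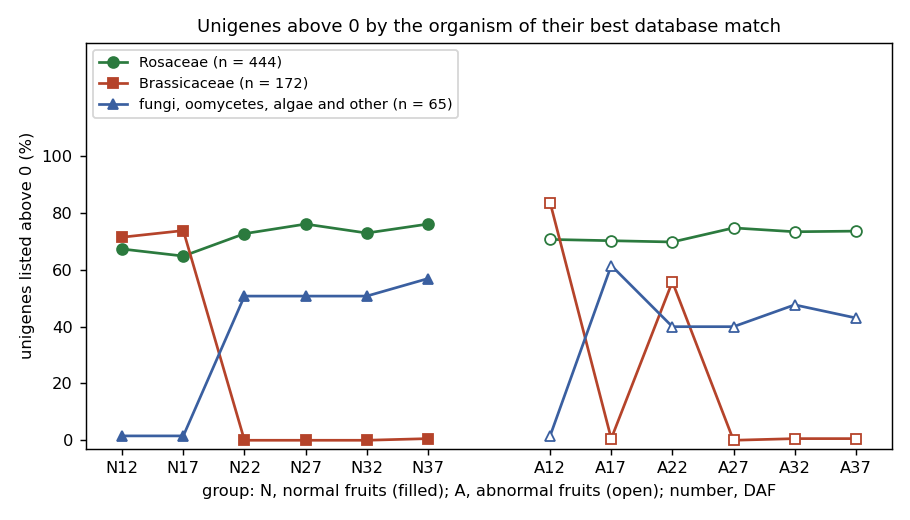
Percentage of unigenes listed above 0 (vertical axis) in each of the 12 groups (horizontal axis, N for normal fruits with filled symbols, A for abnormal fruits with open symbols, number for DAF), for 3 classes of best database match. The Brassicaceae class stood at 123 and 127 of 172 in N12 and N17 and at 0 in N22, while the class of fungi, oomycetes, algae and other organisms went from 1 of 65 to 33.

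Above 0 in some of N12, N17, A12 and A22 and listed at 0 in the remaining 8 groups, N22 included, were 1246 unigenes. Among the 195 of these with a best match, 171 matched Brassicaceae and 18 Rosaceae. Since this criterion uses the zeros of N22, counts were also taken over the 6542 unigenes above 0 at 27, 32 or 37 DAF in normal fruits, a set fixed without the 3 compared stages and chosen after seeing the data.

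From 12 to 17 DAF, 568 unigenes became higher (6.55% of the 8676 listed) and 1033 lower (11.9%), so that 18.5% changed and lower ones prevailed. From 17 to 22 DAF, 1900 became higher (21.9%) and 1102 lower (12.7%), so that 34.6% changed and the order was turned round. Over the whole interval from 12 to 22 DAF 1717 were higher (19.8%) and 1403 lower (16.2%), 36% in all. Much of this rested on zeros: at the first step 307 of the higher unigenes came from a listed 0 and 679 of the lower ones ended at 0, and at the second step the numbers were 1228 and 778. Of the 1102 falls at the second step, 641 (58.2%) belonged to the 1246 unigenes described above. None of the 1900 rises could do so, since these 1246 unigenes are at 0 in N22 by definition.

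Over the 6542 unigenes above 0 at later normal stages the first step gave 336 higher and 647 lower, and the second 1535 higher and 427 lower. This set leaves out unigenes that fell to 0 and stayed there, which tilts its second step towards rises. It kept 427 of the 1102 falls and 1535 of the 1900 rises. The 2309 well expressed unigenes, those averaging 10 FPKM or more across the 12 groups, gave 156 higher and 182 lower, then 466 higher and 171 lower. Rises outnumbered falls at the second step in this well expressed portion, of which 67 rises came from a listed 0 and 14 falls ended at 0. Its choice used the means of all 12 groups, N22 included, so a unigene can enter it through the groups where it is high. The counts of this portion are therefore not a separate check of the direction. A median-of-ratios scaling, taken over 3099 unigenes with no listed 0, set N22 at 0.34 on the log2 scale above N17, and N17 at −0.01 against N12. With this shift removed, the second step gave 1640 higher and 1331 lower, and the whole interval 1444 higher and 1627 lower, so the direction of the majority from 12 to 22 DAF depended on the scaling. In the Rosaceae group the second step gave 95 higher and 44 lower as deposited, and 78 and 65 after this scaling.

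**Figure D2:**
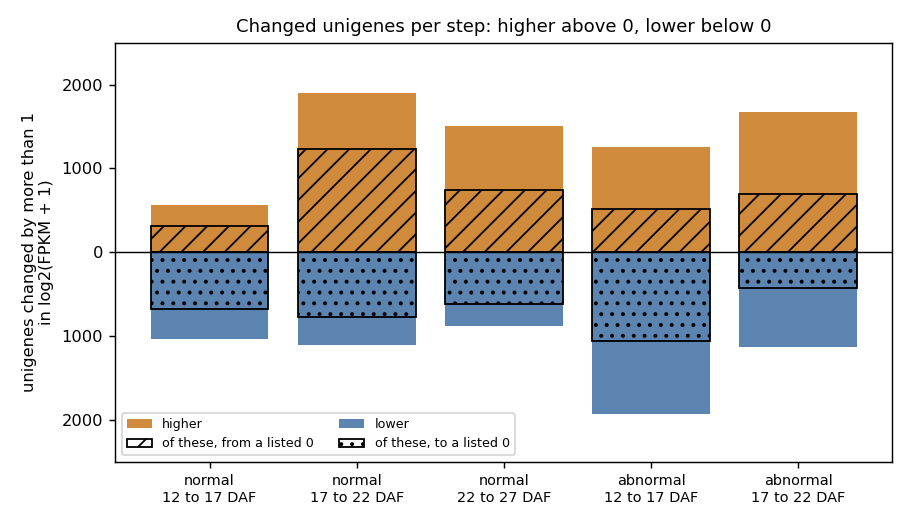
Number of unigenes past a log2(FPKM + 1) difference of 1 at each step (vertical axis, higher drawn upwards and lower downwards), for normal and abnormal fruits. The hatched and dotted portions start from or end at a listed 0; in normal fruits the higher bar grew from 568 at 12 to 17 DAF to 1900 at 17 to 22 DAF, and stood at 1500 (17.3%), against 880 lower (10.1%), at 22 to 27 DAF.

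In all, 3790 unigenes changed at either step and 813 at both. Both steps share the values of N17, so a high or low mean there alone produces opposite signs. Opposite directions were found in 722 of the 813 and the same direction in 91. A peak at 17 DAF was seen in 357 unigenes, of which 238 were above 0 only at 17 DAF among the 3 stages. A trough at 17 DAF was seen in 365, of which 228 were listed at 0 there. The most frequent course, besides no change (4886), was no change followed by a rise (1487), and 1000 of these stood at 0 at 17 DAF. Steady rises (48) and steady falls (43) were few. All 48 steady risers and 17 of the 43 steady fallers were above 0 at later normal stages, against 6542 of all 8676 listed unigenes. The fallers had a median of 0 in N22 already, so this difference partly follows from the courses themselves. The risers had median levels of 1.53, 6.55 and 27.7 FPKM at 12, 17 and 22 DAF and of 42.1 FPKM at 37 DAF.

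**Figure D3:**
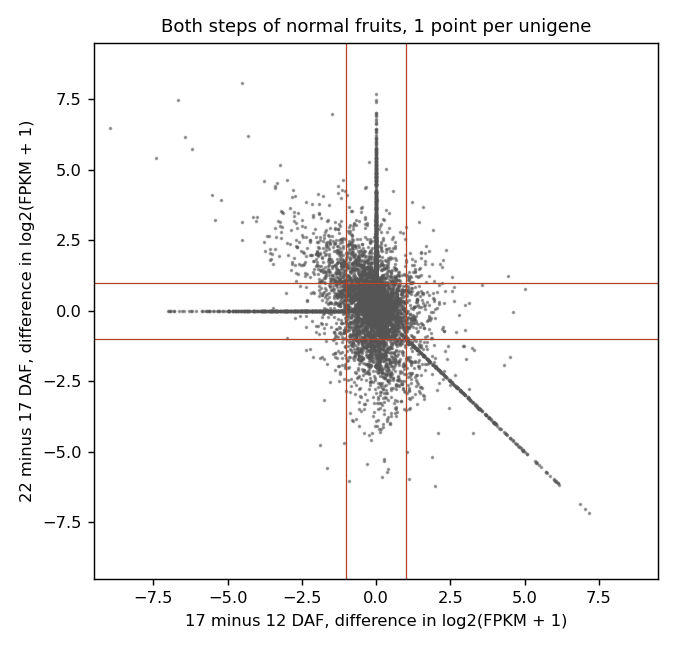
Difference in log2(FPKM + 1) from 12 to 17 DAF (horizontal axis) against that from 17 to 22 DAF (vertical axis), 1 point per listed unigene, with lines at a difference of 1 in either direction. The straight diagonal holds unigenes above 0 only at 17 DAF (238 of the 357 peaks), and the vertical and horizontal rays hold unigenes at 0 in both stages of 1 step.

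Presence and absence followed the same division. All 3 stages listed 3478 unigenes above 0, and 2093 were at 0 at all 3. The largest partial class was above 0 in N22 only (1163 unigenes, median 2.21 FPKM). It could hold no Brassicaceae match, since all of those were at 0 in N22. Of its members 43 matched Rosaceae and 32 matched fungi, oomycetes, algae or other distant organisms. The class above 0 in N12 and N17 but not in N22 held 634, of which 102 matched Brassicaceae and 12 Rosaceae, and only 75 of the 634 were above 0 at a later normal stage. Above 0 later were 832 of the 1163 and 403 of the 449 present in N12 and N22, against 6542 of all 8676 listed unigenes. The share in the 1163 is thus near that of all listed unigenes.

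Across unigenes, N12 and N17 were more alike (Pearson r = 0.89 on the log2 scale) than N17 and N22 (r = 0.80) or N12 and N22 (r = 0.79). Unigenes are not independent replicates, and these values describe the columns only. Among the unigenes above 0 at later normal stages the 3 values were 0.95, 0.89 and 0.89. N17 was about as like A22 (r = 0.89) as N12, and less like A17 (r = 0.73).

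At the most abundant end, 3 unigenes were among the 5 highest at each of the 3 stages, and none of them has a name in the annotation held. DN23546_c1_g1 had 4358 FPKM in N12, 8030 FPKM in N17 and 12832 FPKM in N22, a steady increase that brought it to 5.4% of the column total. DN24536_c0_g1 went from 4111 FPKM to 7033 FPKM and 7925 FPKM. DN26428_c0_g3 instead stood at 4246, 4739 and 2566 FPKM, lower at 22 DAF. DN26691_c0_g5 peaked at 17 DAF, with 2482, 5165 and 1561 FPKM.

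For 4 unigenes with a name and a course of interest, the forward primers of the study's RT-qPCR are shown, because they tie the assembled unigene to a stretch of transcript that can be looked up. They are written 5′ to 3′ in lower case as in the primer table of the study.
DN26787_c1_g1, gibberellin-regulated protein 11-like: ctttcaacaggaggtgcggt
DN27174_c3_g1, fructose-bisphosphate aldolase: cggtgccctccaatacctca
DN20503_c0_g2, glycosyl hydrolase family 28: agtgaaagcaaatggcaaac
DN19594_c0_g1, multicopper oxidase: attcactaagccaaaacgaga

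Named unigenes were read in 10 lists made from the part of the annotation held and from the 25 unigenes that the study names. The lists hold 134 unigenes, some in more than 1 list, of which 25 stood at 0 at all 3 stages. At the first step 8 of the 134 (5.97%) were higher and 12 (8.96%) lower, against 6.55% and 11.9% of all listed unigenes. At the second step 36 (26.9%) were higher and 11 (8.21%) lower, against 21.9% and 12.7%, with a median of 0.22 (0 after median-of-ratios scaling) against 0 over all listed unigenes. After this scaling 32 were higher and 13 lower. These shares lie near those of all listed unigenes, and the lists are small, so the counts below describe their members and show nothing particular to a list. Of the 25 unigenes named by the study, which were picked on these samples, 2 (8%) were higher and 4 (16.0%) lower at the first step, and 8 (32.0%) were higher and 2 (8%) lower at the second, or 5 and 2 after median-of-ratios scaling.

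Hormone unigenes (19, of which 3 were at 0 throughout) had 1 higher and 0 lower at 12 to 17 DAF, and 7 higher (36.8%, against 21.9% of all listed unigenes) and 1 lower at 17 to 22 DAF. With median-of-ratios scaling 5 were higher at the second step. The single early rise was DN26918_c0_g1, named as IAA13, a repressor of auxin-responsive genes that auxin causes to be degraded. It had 13.6 FPKM in N12, 34.1 FPKM in N17 and 28.0 FPKM in N22, differences of 1.26 and −0.28. Its sister unigene DN26918_c0_g2 was far more abundant and level, at 530, 602 and 560 FPKM. DN18673_c0_g1, auxin-induced protein 15A of the small auxin-up family, increased by less than 1 at each step, from 4.77 to 9.08 and 18.0 FPKM, which came to 1.72 over both.

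Of the 3 abscisic acid receptor unigenes, 2 were higher at the second step. PYR1 (DN24477_c0_g1) had 116, 188 and 454 FPKM, a difference of 1.27 from 17 to 22 DAF, and PYL8 (DN22391_c0_g1) had 18.5, 15.4 and 38.1 FPKM, a difference of 1.26. These receptors bind abscisic acid and release its signalling from inhibition. With the median-of-ratios scaling both differences came to 0.93, below the threshold. Another receptor unigene, DN23029_c0_g1, moved by 0.28 and 0.26 only, from 40.0 to 48.8 and 58.8 FPKM.

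The gibberellin-regulated protein 11-like unigene DN26787_c1_g1, of a family of small secreted cysteine-rich proteins, had 2.08, 2.83 and 9.89 FPKM, a difference of 1.51 at the second step. It went on to 208 FPKM at 37 DAF. DN24592_c0_g1, gibberellin 2-beta-dioxygenase 8, an enzyme that inactivates gibberellins, had 0.797, 1.35 and 6.72 FPKM. In contrast, ent-kaur-16-ene synthase (DN24508_c2_g2), which makes a precursor of gibberellins and was read in the chloroplast list, had 2.40, 5.77 and 1.10 FPKM, differences of 0.99 and −1.69. Of the ethylene-responsive factor family, whose members bind DNA and take part in stress and surface development, DN12781_c0_g1 (factor 12) was the single hormone unigene lower at the second step, at 9.83, 16.1 and 5.38 FPKM. Of the other members of this family in the list, only ERF021, WIN1 and DREB3 were higher there. The remaining members did not pass the threshold in either direction. ERF021 (DN13125_c0_g1) differed by 1.52, from 1.92 to 7.34 FPKM, and WIN1 and DREB3, described below, by 2.11 and 2.40.

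Transcription factors (26, of which 6 were at 0 throughout) had 0 higher and 1 lower at the first step, and 8 higher (30.8%, against 21.9% of all listed unigenes) and 1 lower at the second. The unigene named WRKY transcription factor 75, DN26011_c0_g2, had 1.19 FPKM in N12, was listed at 0 in N17 and had 23.7 FPKM in N22. WRKY75 is known in Arabidopsis from phosphate starvation and leaf ageing. DREB3 (DN15306_c0_g1), of a family known from drought responses, had 8.55, 7.31 and 42.8 FPKM, a difference of 2.40. WIN1 (DN16580_c0_g1), an activator of cutin and wax formation in Arabidopsis, had 0.339, 0.957 and 7.45 FPKM, and AGL80 (DN16282_c0_g1), a MADS-box factor of the central cell and endosperm in Arabidopsis, was listed at 0 in N12 and N17 and at 3.82 FPKM in N22. AGL80 was still higher at later stages, at 12.7 FPKM in N37. TCP14 (DN22414_c0_g4), a growth regulator, differed by 0.99 at the first step, from 52.9 to 106 FPKM, and was at 102 FPKM in N22.

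In the list of sugar and organic acids (15 unigenes), 1 was higher and 2 lower at the first step and 5 higher (33.3%, against 21.9% of all) and 1 lower at the second. Fructose-1,6-bisphosphatase (DN18563_c0_g1), an enzyme of sucrose and starch formation, had 46.6, 95.4 and 95.5 FPKM, a difference of 1.02 that came to 0.95 after scaling to equal totals. Fructose-bisphosphate aldolase (DN27174_c3_g1), of glycolysis and the Calvin cycle, ran through a trough with 394, 140 and 333 FPKM. Its differences were −1.49 and 1.25, the latter 0.91 after median-of-ratios scaling. NADP-dependent malic enzyme 2 (DN7242_c0_g1), which turns malate into pyruvate, was level at 120 and 114 FPKM and then stood at 392 FPKM, a difference of 1.77.

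DN14218_c0_g1, named as a putative invertase inhibitor, had 28.7, 42.2 and 253 FPKM, a difference of 2.56 at the second step. Invertase inhibitors hold back the enzymes that split sucrose. Alkaline/neutral invertase B (DN27666_c0_g1), itself a sucrose-splitting enzyme, had 55.8, 69.0 and 77.8 FPKM. SWEET12 (DN25084_c2_g5), a sugar exporter of the plasma membrane, was listed at 0 in N12 and N17 and at 5.29 FPKM in N22, and reached 43.4 FPKM in N27. A unigene named citrate synthase 4 (DN23508_c0_g1) had 2.24 and 2.43 FPKM in N12 and N17 and was listed at 0 in the 10 other groups, and so belongs to the 1246 unigenes described above. The malate dehydrogenase unigene DN15548_c0_g1, at 0, 0 and 4.19 FPKM, had a red alga as its best match.

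**Figure D4:**
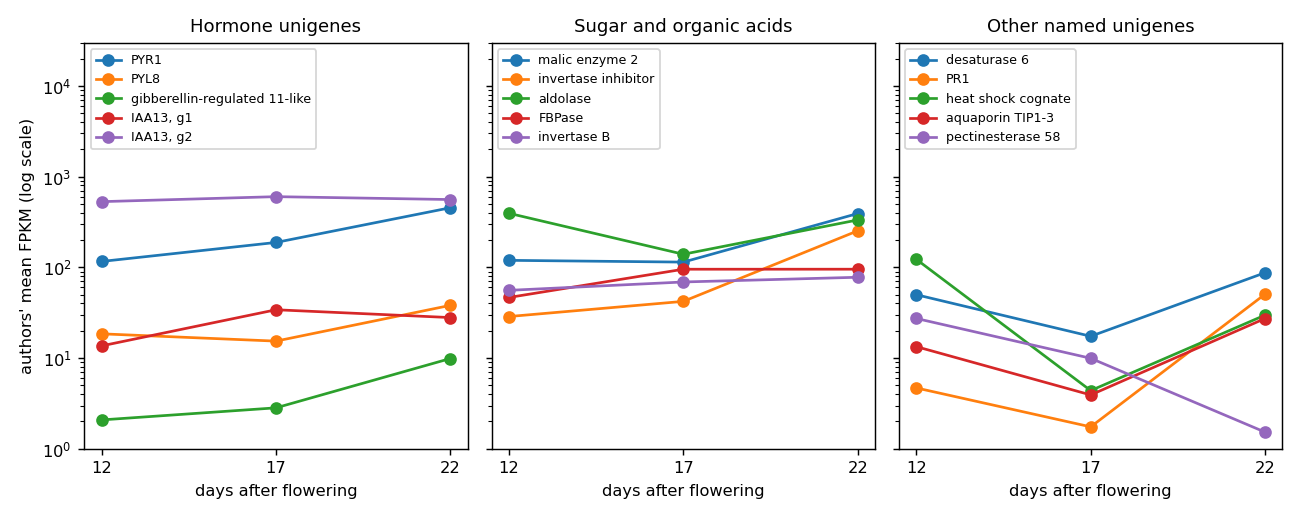
Authors' mean FPKM (vertical axis, log scale) at 12, 17 and 22 days after flowering (horizontal axis) in normal fruits for 15 named unigenes in 3 panels, 1 line per unigene and without error since the deposited values are group means. PYR1 ran from 116 to 454 FPKM, aldolase, desaturase 6, the heat shock cognate and aquaporin TIP1-3 passed through a trough at 17 DAF, and pectinesterase 58 declined from 27.3 to 1.53 FPKM.

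Cell wall unigenes (12, of which 4 were at 0 throughout) had 0 higher and 2 lower at the first step and 3 higher (25.0%, near the 21.9% of all) and 1 lower at the second. DN20503_c0_g2 of glycosyl hydrolase family 28, the family of pectin-cutting polygalacturonases, had 0.778, 1.03 and 5.95 FPKM, a difference of 1.77. The glycosyltransferase family 2 unigene DN23864_c0_g1, of a family that includes cellulose synthases, was lower at the first step, with 41.3, 19.6 and 26.2 FPKM. Of 2 unigenes named pectinesterase 58, which removes methyl groups from pectin, DN26340_c0_g1 declined from 27.3 to 9.95 and 1.53 FPKM, whereas DN15790_c0_g1 was listed at 0, 0 and 1.79 FPKM.

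DN26340_c0_g1 was 1 of the 3 largest steady declines among unigenes with a name. The others were DN15953_c0_g1, named as an Olee1-like protein, the family of an olive pollen allergen, with 10.7, 3.69 and 0.453 FPKM, and DN16370_c0_g1, RALF-like 22, a small signalling peptide, with 10.5, 3.36 and 0.402 FPKM. A unigene named after a further olive pollen allergen, Ole e 6 (DN15176_c0_g1), followed with 24.7, 16.2 and 0.826 FPKM. DN15101_c0_g1, PLIM2c, whose Arabidopsis counterpart binds actin in pollen, had 4.19 FPKM in N12 and was listed at 0 in N17 and N22. These 5 unigenes were set together after their values were seen. In abnormal fruits at 12 DAF they had from 4.48 FPKM (PLIM2c) to 37.2 FPKM (pectinesterase 58). RALF-like 22 differed from the others outside the 3 stages. It had 4.39 FPKM in N27 and 7.04 FPKM in N32, and went from 14.2 FPKM in A12 to 28.4 FPKM in A17. The others stood at 0.877 FPKM or less from N27 on and were lower in A17 than in A12.

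Of the lipid, cutin and wax list (13), 1 was higher and 2 lower at the first step and 3 were higher (23.1%, near the 21.9% of all) and 1 lower at the second. Acyl-[acyl-carrier-protein] desaturase 6 (DN20506_c0_g1), which sets the first double bond in fatty acids, had 49.9, 17.4 and 87.3 FPKM, differences of −1.47 and 2.26. A monogalactosyldiacylglycerol synthase (DN15381_c0_g2), which makes the main lipid of chloroplast membranes, had 4.70, 5.11 and 22.5 FPKM. The unigene lower at the second step was the lipid-transfer protein DIR1 (DN14988_c0_g1), known from systemic defence in Arabidopsis, with 44.9, 71.5 and 26.7 FPKM.

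Chloroplast proteins (16) were the list with the highest median at the first step, 0.62 against 0 over all listed unigenes, and none of them was lower there. Single differences were mostly below 1, and 3 passed it (18.8%, against 6.55% of all). The high-light-induced protein (DN13843_c0_g1), of a family that protects the photosynthetic apparatus, had 119, 263 and 243 FPKM, and the pentatricopeptide repeat protein DN16180_c0_g1, of a family that processes organelle RNA, had 7.29, 27.2 and 23.8 FPKM. The remaining one was a peroxiredoxin (DN13316_c0_g1) at 0.252, 1.63 and 0.243 FPKM. At the second step the median was 0.05, or −0.28 after median-of-ratios scaling, with 2 higher (12.5%) and 2 lower (12.5%), or 2 and 3 after this scaling, against 21.9% and 12.7% of all.

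Transporters (15) had 1 higher and 2 lower at the first step and 4 higher (26.7%, near the 21.9% of all) and 0 lower at the second. The aquaporin TIP1-3 (DN14028_c0_g1), a water channel of the vacuolar membrane, ran through a trough with 13.4, 3.92 and 27.3 FPKM. Ammonium transporter 1 member 1 (DN22943_c5_g2) was higher at the first step, with 2.74, 10.3 and 6.51 FPKM. Receptors and kinases (19, of which 7 were at 0 throughout) had 0 higher and 0 lower at the first step and 6 higher (31.6%, against 21.9% of all) and 1 lower at the second. The highest of these was the kinase OXI1 (DN16960_c0_g1), which responds to reactive oxygen in Arabidopsis, with 7.62, 3.93 and 22.0 FPKM, and the other 5 stood at 4.13 FPKM or less in N22.

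Defence unigenes (8) had 0 higher and 2 lower at the first step and 3 higher (37.5%, against 21.9% of all) and 1 lower at the second. The lower one was the pollen allergen Ole e 6 described above, and the list also holds the abscisic acid receptor unigene DN23029_c0_g1. Pathogenesis-related protein 1 (DN16394_c0_g1), a marker of salicylic acid responses, had 4.69, 1.75 and 50.6 FPKM, a difference of 4.23 at the second step, and stayed high at 139 FPKM in N27. Oxidation and stress (10) had 2 higher and 1 lower at the first step and more lower than higher at the second, 4 (40.0%, against 12.7% of all) against 1. The 4 were the L-ascorbate oxidase homolog DN24542_c2_g4 (143, 245 and 68.4 FPKM), the multicopper oxidase DN19594_c0_g1 (25.4, 15.7 and 5.56 FPKM), cytochrome P450 81D11 (DN13071_c0_g1, listed at 0 in N22) and the peroxiredoxin above. The P450 unigene belongs to the 1246 unigenes described above, and the peroxiredoxin had 1.63 FPKM or less at the 3 stages. The heat shock cognate protein DN27837_c1_g4, a chaperone, had 123, 4.38 and 29.8 FPKM, a difference of −4.52 at the first step, the largest decrease there among Rosaceae unigenes with a name. Peroxidase 44 (DN24026_c1_g1) stayed near its level with 13.9, 10.7 and 8.72 FPKM.

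**Figure D5:**
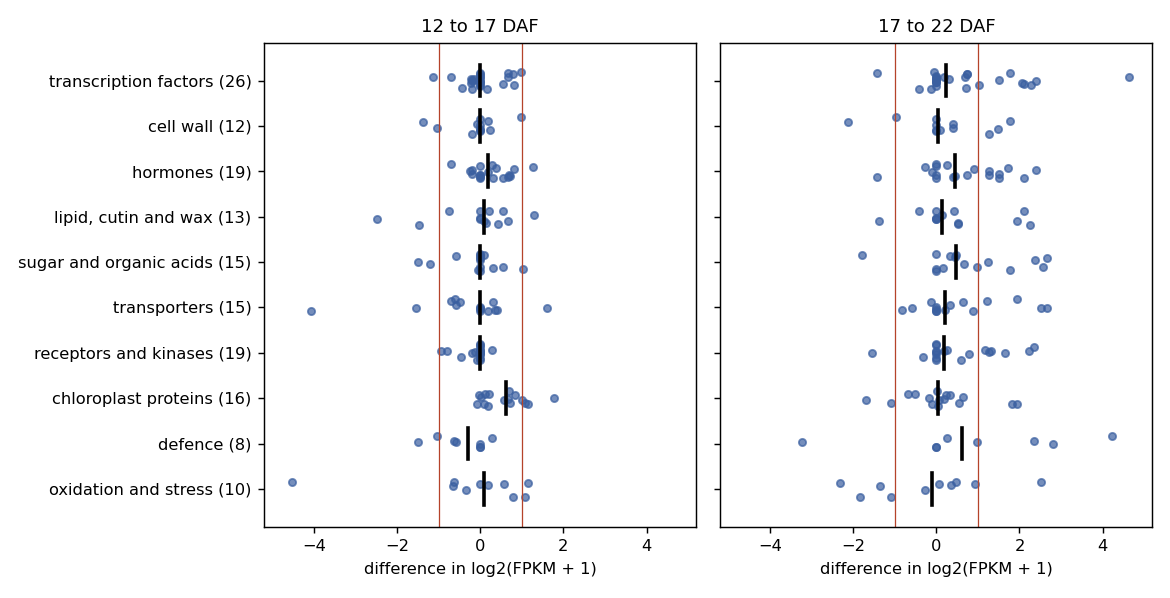
Difference in log2(FPKM + 1) of each member (points) of the 10 lists at 12 to 17 DAF (left) and 17 to 22 DAF (right), with the list median as a black bar, lines at a difference of 1 in either direction and the number of members in brackets. Chloroplast proteins had the highest median at the first step (0.62), and 36 of the 134 listed members were past 1 upwards at the second.

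Outside the lists, the largest rises among Rosaceae unigenes with a name at the second step were mostly from a listed 0. DN12131_c0_g1, an EMG1/NEP1 methyltransferase of ribosome formation, was at 0 in N12 and N17 and at 26.6 FPKM in N22, while DN18117_c0_g1, a heavy metal-associated isoprenylated plant protein, had 2.86, 0.569 and 32.7 FPKM. At the first step the named unigene with the largest rise was DN27852_c1_g1, an N-methylcoclaurine hydroxylase of the cytochrome P450 family, at 0, 31.4 and 54.0 FPKM. A rise from a level above 0 was seen in DN15378_c0_g1, an ADP-ribosylation factor GTPase-activating protein of vesicle traffic, with 32.9, 113 and 90.2 FPKM.

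The extreme changes over all listed unigenes were on and off. The 5 largest rises at the first step were unigenes at 0 in N12 and N22, such as DN24425_c2_g2 with 142 FPKM in N17 only. At the second step 3 of the 5 largest rises were above 0 in N22 alone of the 6 normal groups, the highest being DN2765_c0_g1 with 206 FPKM. Unigenes of 1 assembly cluster, which may be parts or variants of 1 gene, went opposite ways in 10 clusters at the first step and 34 at the second. An exact FPKM value above 0 was shared with another unigene in 113 cases in N12, 194 in N17 and 312 in N22.

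Abnormal fruits, sampled at the same stages, give a second reading of the steps that shares no sample with the normal ones. In them 1256 unigenes were higher (14.5%) and 1930 lower (22.2%) from 12 to 17 DAF, and 1676 higher (19.3%) and 1134 lower (13.1%) from 17 to 22 DAF. Of the 568 unigenes higher in normal fruits at the first step, 92 (16.2%) were also higher in abnormal fruits and 163 (28.7%) lower. Of the 1033 lower ones, 212 (20.5%) were also lower and 92 (8.91%) higher. With A17 and A22 exchanged, an alternative chosen after seeing the data, 153 (26.9%) of the 568 were higher and 105 (18.5%) lower, against 11.5% and 12.5% of all listed unigenes, so the larger share changed its direction. The labels give no sign of such an exchange, which only shows how far the counts rest on these groups.

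At the second step 268 of the 1900 unigenes higher in normal fruits (14.1%) were also higher in abnormal ones, below the 19.3% of all listed unigenes, and 325 (17.1%) were lower, against 13.1%. Of the 1102 lower in normal fruits only 49 (4.45%) were also lower, and 469 (42.6%) were higher, against 19.3%. Of the Brassicaceae unigenes, 1 was above 0 in A17 and 96 in A22. Over the unigenes above 0 at later normal stages, which hold 1 of the 172 Brassicaceae unigenes, 252 of 427 (59.0%) were higher and 33 (7.73%) lower, against 19.5% and 14.4% of these 6542. With A17 and A22 exchanged the higher and lower counts change places by construction.

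The unigenes of the second step were lastly read at later stages of normal fruits, which had no part in their choice, against N12. Of the 1900 higher ones, 877 (46.2%) were higher than in N12 at 27 DAF, 676 (35.6%) at 32 DAF and 711 (37.4%) at 37 DAF, against 30.9%, 19.4% and 25.7% of all listed unigenes. Their median level was 5.28 FPKM in N22 and 2.30, 1.29 and 1.50 FPKM at the 3 later stages. In N12 it was 0.213 FPKM, against 1.15 FPKM over all listed unigenes. The 1900 thus started lower, and their shares are not like for like with those of all. Of the 1102 lower ones, 679 (61.6%), 719 (65.2%) and 674 (61.2%) were lower than in N12 at the 3 stages, against 17.6%, 21.2% and 19.4% of all. Among the 427 of these that were above 0 at some later stage, 210 (49.2%), 250 (58.5%) and 205 (48.0%) were lower than in N12, against 9.68%, 14.4% and 12.0% of the 6542. Of the 1102, however, 641 belonged to the unigenes listed at 0 at the 3 later stages by definition. A unigene at 1 FPKM or less in N12 cannot be lower by over 1. The median in N12 was 10.6 FPKM in the 427 and 1.6 FPKM in the 6542, so these shares are not like for like.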

How the data were processed

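Normal and abnormal fruits were sampled at 6 stages, with 3 replicates per group, called biological in the study and taken from separate trees. The authors assembled unigenes with Trinity, aligned clean reads with Bowtie2, estimated counts with RSEM, normalised them with DESeq2 and deposited FPKM, as 1 mean per group and unigene. Versions are not given in the sources used here. The reads behind a single FPKM value are unknown, and neither an interval nor a floor for a listed 0 could be given.

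Groups follow the sample labels and column names. The columns were joined on the unigene identifier, and differences taken in log2(FPKM + 1) past a threshold of 1, the fold change limit of the study without its p-value. Members and lists were chosen with earlier results of these data known. Names and best matches come from the annotation tables of the study, of which parts were held (1017 of the 8676 unigenes, 11.7%, not a random sample), so no enrichment was computed. The IDs matched 0 entries of the RefSeq gene table.

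Named unigenes are, per step, the 10 largest rises and falls among those with a functional name and a Rosaceae best match and the 5 largest over all, up to 4 per list with the largest change, the 5 most abundant per stage, the 25 the study names and the 3 largest of each double course. DN12781_c0_g1, DN15953_c0_g1 and DN16370_c0_g1 fall outside this rule and were picked with their values in view, the latter pair as large double courses among unigenes with a name.

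The counts were repeated with a pseudocount of 0.1 or 5, with unigenes below 1 or 5 FPKM left out, after scaling to equal totals or by median-of-ratios, and past a threshold of 2, and likeness as Spearman's rho. The counting was tested on simulated data. Python 3.11.15, numpy 2.4.6, pandas 2.3.3 and matplotlib 3.10.9 were used. The study's own fold changes, p-values, enrichments and RT-qPCR values were not used.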

Additional observations from a re-analysis of the deposited data

How the results depend on the processing

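No paired analysis was possible because the deposited columns carry 1 mean per group, and for the same reason no replicate could be left out. In all 8 alternatives more unigenes were lower than higher from 12 to 17 DAF and more were higher than lower from 17 to 22 DAF. From 12 to 22 DAF more were higher than lower in 7 of 8, the exception being median-of-ratios scaling. Of these 8, the minimum of 1 FPKM cannot alter a count past the threshold of 1. The set above 0 at later normal stages tilts the steps that end in N22 towards rises. Neither is therefore a check of the direction at those steps. The size of the counts depended on the treatment of low values. Changed unigenes at the first step, the second step and over the whole interval (1601, 3002 and 3120) numbered 675, 1222 and 1279 with a pseudocount of 5. With a minimum of 5 FPKM the counts were 862, 1513 and 1582, with a threshold of 2 they were 633, 1274 and 1284, and over unigenes above 0 at later normal stages 983, 1962 and 1926. Changes at both steps (813) became 1392 with a pseudocount of 0.1, and 287, 501, 260 and 520 in the order of these alternatives. Both abnormal steps together (5996) gave 3031 with a pseudocount of 5, 3813 with a minimum of 5 FPKM and 2460 with a threshold of 2. Unigenes that changed in the same direction in both fruit types (621, both steps) numbered 1280 and 199 with pseudocounts of 0.1 and 5, 149 with a threshold of 2 and 1123 with A17 and A22 exchanged. Unigenes of the second step that differed from N12 in the same direction at 27 DAF (1556) numbered 481 with a pseudocount of 5 and 919 with a minimum of 5 FPKM. Those above 0 at some of the 3 stages only (3105) numbered 1674 among those present later. List members changed at the second step (47) numbered 21 and 29 with a pseudocount of 5 and a minimum of 5 FPKM. Among 1450 recalculated differences of named unigenes 93 crossed the threshold. Of the 1450, 220 and 166 came from the minimum of 1 or 5 FPKM, which leaves a difference as it is. A difference past the threshold cannot change sign with another pseudocount or with scaling shifts as small as these, so signs were not put to a check.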
